A study of Tetradesmus deserticola with 10 samples.

Results

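The data are from strain Sni-2 of the desert alga Tetradesmus deserticola, for which the submitters' name is Acutodesmus deserticola. On the deposited scale, a small set of genes kept a mean of at least 0.5 times their starting transcript level through drying. These genes were at a small part of the starting level 1 h after water was added back. There were 21 such genes among the 20783 assembled genes of the study. They were chosen on the readout itself: at least 300 expected counts over the 10 libraries, a higher Rehydrated value at most 0.333 times the lowest of the other 8 libraries, a Late mean above 0.5 and below 2 times the Hydrated mean, and a Dry mean from 0.5 to 4 times the Hydrated mean. The last 3 conditions were applied to the authors' TMM-normalized expression signal, which is corrected for gene length and library. Because every library entered this choice, the levels given here, the comparisons of Rehydrated with any stage, and those of Late or Dry with Hydrated are descriptions without a test.

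RNA was sequenced from drops of 40 µL of cultures grown for 6 weeks, with 2 libraries in each of 5 stages. Hydrated drops were collected at once. Early drops were taken after 2.5 h of drying, when 25% of the volume was lost, and Late drops after 7.5 h, when 60% was lost. Dry spots were fully flattened, stayed in the drying chamber for 11 h more and were collected about 24 h after the start. Rehydrated spots were collected 1 h after rewetting. All libraries came from cultured cells of the one strain, without a drug or a genetic change, and the samples include no drops that stayed wet over this time, so the passing of time and the change in water cannot be told apart. Nothing in the labels tells if both libraries of a stage stem from different cultures. The p-values therefore cover only the spread between libraries of the same stage, pooled over the 5 stages and possibly a technical one.

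Desiccation-tolerant green algae lose nearly all cell water, come to a metabolic halt and resume photosynthesis and growth after rewetting. Messenger RNA that is present in a dried cell can persist while metabolism is stopped, as is known of dry seeds and of desiccation-tolerant mosses, where stored messages are used or broken down once water returns. A transcript's level after rewetting reflects what was stored, what was degraded and what was newly made. RNA sequencing of whole drops gives the balance of these, and fewer living cells and less RNA per cell cannot be told apart in it.

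No gene names come with the files and no annotation was used here, so the genes are given by assembly identifiers, without function, position or sequence. Libraries held between 644705 and 1917825 counts, with both Rehydrated libraries the shallowest. The members had between 42 and 5804 counts in each Hydrated and Early library, between 7 and 1129 in each Dry library and between 0 and 183 in each Rehydrated library. The low end in Rehydrated limits the precision of the fold changes of the weaker members.

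On the deposited signal, the median member was 7.75-fold lower in Rehydrated than in Dry, with a range over the 21 genes from 3.22-fold to 28.9-fold. Against Hydrated the median was 9.19-fold lower, with a range from 3.62-fold to 30.3-fold. Both Rehydrated libraries lay below all other libraries in 21 of 21 members, as the rule requires, while the same held for 17.4% of the 2904 genes with at least 300 counts. Before rewetting the members stayed nearer to their starting level, as the rule requires of the Late and Dry means. The median log2 difference from Hydrated was 0.63 for Early, 0.52 for Late and -0.29 for Dry. The Dry mean was above the Hydrated mean in 7 members and below it in 14. This direction turned on CPM (counts relative to the library total) scaled with TMM factors computed here, with RLE or with upper-quartile factors: under each of them it was above in 13 members and below in 8, with median log2 differences of 0.12, 0.18 and 0.13. The medians over the 2904 genes were higher under each, at 0.38, 0.44 and 0.39. Those over the other genes within the Late and Dry limits were 1.03, 1.09 and 1.06. On the deposited signal these 2 medians were -0.04 and 0.62, also above that of the members. In 9 members both Dry libraries lay below both Hydrated libraries, against 44.5% of the 2904 genes, and nothing is read from this count, since the rule bounds the Dry mean. The stage with the highest mean was Early for 14 members, Late for 3, Dry for 3 and Hydrated for 1. Under library totals it was Early for 12, Hydrated for 7, Late for 1 and Dry for 1, and under RLE Early for 11, Dry for 8, Late for 1 and Hydrated for 1. The highest stage was not counted over the 2904 genes, and the rule bounds Late, Dry and Rehydrated. Nothing is therefore read from these counts of stages.

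**Figure D1:**
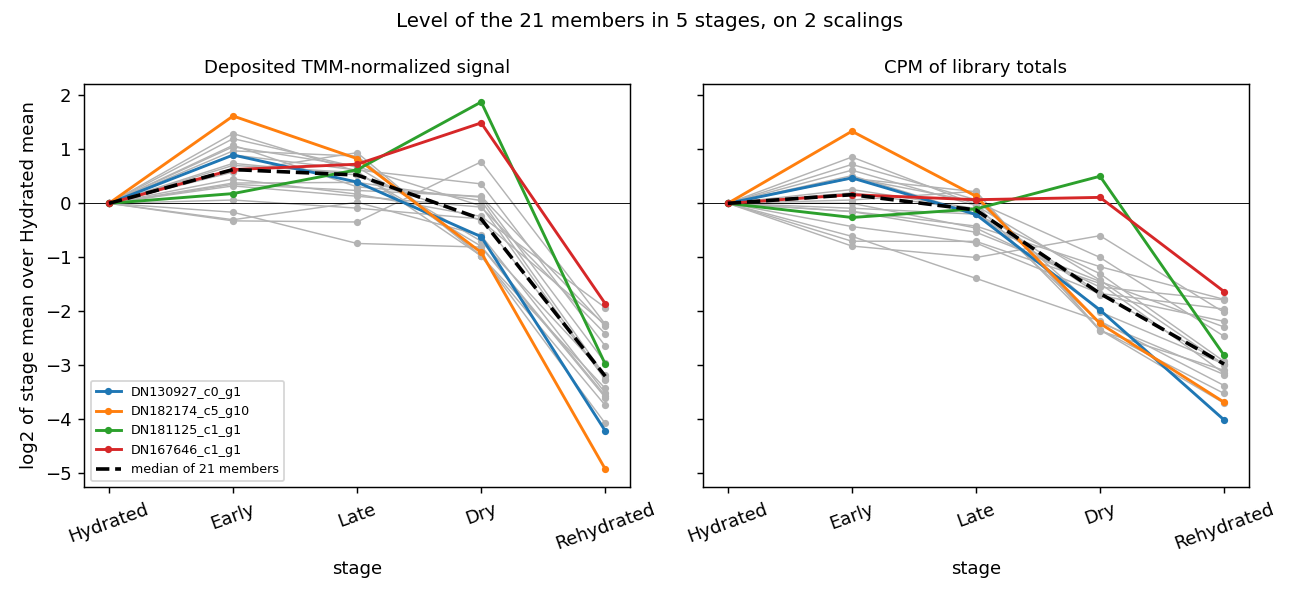
Mean level of each of the 21 members in the 5 stages, as log2 of the stage mean over the Hydrated mean (y axis), on the deposited TMM-normalized signal (left) and as CPM of library totals (right). Grey and coloured lines are single genes and the dashed line is the median, which reached -3.20 in Rehydrated on the left and -2.97 on the right, and -0.29 in Dry on the left and -1.67 on the right.

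The largest loss by the rule's own ratio was that of TRINITY_DN130927_c0_g1, whose lowest library before rewetting lay 10.1-fold above its higher Rehydrated library. Its signal was 1250.0 and 599 in the Hydrated libraries, 1960.1 and 1477 in Early, 1297 and 1132 in Late, 642 and 563 in Dry, and 44.0 and 55.7 in Rehydrated. Hydrated, Early, Late and Dry thus spanned from 563 to 1960.1, and both Rehydrated libraries were far below all of them. With 22553 counts in all, this gene was the most deeply counted member, and its Rehydrated values rest on 91 and 90 counts.

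TRINITY_DN182174_c5_g10 followed with a ratio of 7.58. Its signal was 845 and 586 in Hydrated, 2637 and 1754 in Early, 1561 and 980.4 in Late, 359 and 403 in Dry, and 47.3 and 0 in Rehydrated. It was high in Early and Late, lower in both Dry libraries than in both Hydrated ones, and lowest in both Rehydrated libraries. Its relative length was 0.0292 of that of the median gene, and these high signals rest on few reads, namely 26 counts in the Dry libraries together and 4 in the Rehydrated libraries. From these counts under TMM, the drop from Dry to Rehydrated was 10.8-fold, with an exact 95% Poisson interval from 3.75 to 42.6 that covers counting error only. Under library totals it was 3.14-fold, with an interval from 1.09 to 12.4. Because the rule chose the genes for this drop, these intervals give the counting precision and are no test of it.

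The member with the highest signal was TRINITY_DN155202_c1_g1. Its signal was 2020.1 and 1828 in Hydrated, 4257 and 3691 in Early, 3085 and 3083 in Late, 2026 and 1693 in Dry, and 147 and 252 in Rehydrated. The Hydrated and Dry libraries overlapped, the Early libraries were the highest, and the Rehydrated mean of 199.7 ± 74.2 (SD, n = 2) was 9.31-fold below the Dry mean.

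On the deposited signal 3 members had their highest mean in the dry state, TRINITY_DN181125_c1_g1, TRINITY_DN167646_c1_g1 and TRINITY_DN186034_c6_g2. Under library totals this was so for TRINITY_DN181125_c1_g1 alone. TRINITY_DN181125_c1_g1 had the highest ratio of Dry to Hydrated, 3.67. Its signal was 111 and 99.0 in Hydrated, 126 and 112 in Early, 150.1 and 173 in Late, 399.9 and 371 in Dry, and 7.20 and 19.5 in Rehydrated. It lay between 99.0 and 173 until Late, was highest in both Dry libraries, and then was 28.9-fold lower, the steepest drop from Dry to Rehydrated among the 21 on the deposited signal. That drop rests on 3 and 6 Rehydrated counts against 92 and 88 in Dry. From these counts it was 33.3-fold under TMM, with a counting interval from 17.1 to 74.0, and 9.66-fold under library totals, with an interval from 4.97 to 21.5.

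TRINITY_DN167646_c1_g1 was the next, with a Dry level 2.81 times the Hydrated one. Its signal was 485 and 443 in Hydrated, 725 and 706 in Early, 776 and 755 in Late, 1268 and 1336 in Dry, and 113 and 143 in Rehydrated. Among the stages before rewetting Hydrated was the lowest, followed by Early, Late and Dry, without overlap between neighbours in this order. After rewetting it was 10.2-fold below Dry, but only 3.62-fold below Hydrated, the smallest distance from Hydrated among the members.

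At the other end stood the 2 members with the lowest ratio of Dry to Hydrated, just above the limit of 0.5. TRINITY_DN185142_c5_g1 had a signal of 145 and 146 in Hydrated, 236 and 334 in Early, 259.9 and 273 in Late, 69.5 and 77.9 in Dry, and 9.58 and 12.2 in Rehydrated. Its level was thus already lower in Dry, at 0.507 times Hydrated, and lower again in Rehydrated. TRINITY_DN177941_c3_g1 had a signal of 57.7 and 52.2 in Hydrated, 60.8 and 103 in Early, 93.2 and 117 in Late, 22.1 and 33.7 in Dry, and 5.42 and 4.80 in Rehydrated. It took the same course from a peak in Late, and its Dry libraries held 7 and 11 counts and its Rehydrated libraries 3 and 2. Its drop from Dry to Rehydrated, computed from counts, was 5.99-fold under TMM, with a counting interval from 2.14 to 20.6. Under library totals it was 1.74-fold, with an interval from 0.622 to 5.99.

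The limit of 0.333 cut through a continuous range of genes. Just inside it, TRINITY_DN170764_c1_g1 had a ratio of 0.329, from a higher Rehydrated signal of 12.9 and a lowest other signal of 39.1. TRINITY_DN178163_c4_g1 had 0.328, from 27.3 and 83.2. Just outside it among genes that met every other condition, TRINITY_DN179503_c1_g1 had 0.345, from 166 and 480.1, and TRINITY_DN171902_c0_g1 had 0.352, from 29.2 and 83.2. In 14 members the lowest library before rewetting was a Dry library and in 5 a Hydrated library. The Late and Dry limits left 929 of the 2904 genes, of which 908 did not show the loss, and without those limits the loss was shown by 57 genes.

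**Figure D2:**
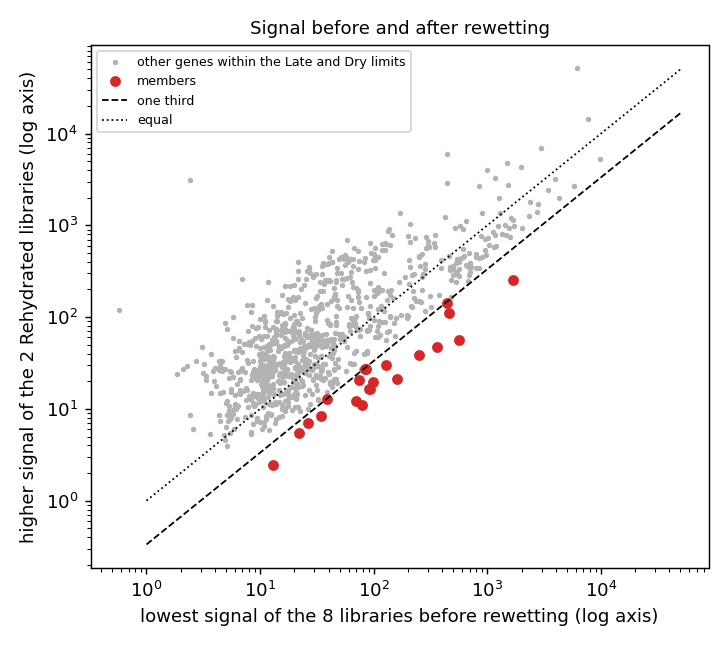
Lowest deposited signal of the 8 libraries before rewetting (x axis, log scale) against the higher signal of the 2 Rehydrated libraries (y axis, log scale), for the 21 members (red) and 904 other genes within the Late and Dry limits (grey; 4 with a value of 0 are not drawn). The dashed line marks a ratio of 0.333, and the members lie on or below it, the nearest at a ratio of 0.329.

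How much of the loss took place before rewetting depended on the scaling of the libraries, and the words kept through drying hold only on some scalings. Of the 21 members, 18 met the whole rule with CPM under TMM factors computed here, 18 under RLE, 15 under upper-quartile factors and 1 under library totals alone. With CPM of library totals, 19 of 21 members had both Dry libraries below both Hydrated libraries, against 63.7% of the 2904 genes. In 18 members the Dry mean was below 0.5 times the Hydrated mean. The median of the 2904 genes was below that limit too and their share was not counted, so nothing is read from the 18. The members' median log2 difference from Hydrated was then -1.67 in Dry and -2.97 in Rehydrated. For all 2904 genes the median log2 difference of Dry from Hydrated was -0.04 on the deposited signal and -1.41 under library totals. Over all genes, 2 met the whole rule under library totals. The distance of Rehydrated from Hydrated depended less on scaling: the median was 7.86-fold lower under library totals, 7.88-fold under TMM factors computed here, 7.77-fold under RLE and 6.84-fold under upper-quartile factors. The mean was lower in Rehydrated than in Dry for 21 of 21 members under each of these 4 scalings, with a median of 2.47-fold under library totals and 8.66-fold under TMM. The members were chosen for low Rehydrated signal, and each scaling uses the counts of the same libraries. This direction and the counts of Rehydrated libraries below others are therefore descriptions, and no test of the loss. For all 2904 genes the median log2 difference of Rehydrated from Dry was 1.19 under library totals and -0.59 under TMM. Both Rehydrated libraries lay below both Dry libraries in 19 members under library totals and 21 under TMM, against 15.3% and 49.4% of the 2904 genes. Under library totals the 2 Rehydrated libraries lay below all other libraries in 19 members, against 7.16% of the 2904 genes.

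For TRINITY_DN130927_c0_g1 the library-total values were 2642 and 1384 CPM in Hydrated, 3585 and 1993 in Early, 2170.0 and 1319 in Late, 560.1 and 464 in Dry, and 141 and 109 in Rehydrated. Both Dry libraries were below all earlier ones on this scale, and both Rehydrated libraries were below Dry. TRINITY_DN181125_c1_g1 kept its maximum in Dry on this scale too, at 42.2 and 41.5 CPM in Hydrated, 63.3 and 55.2 in Dry and 4.65 and 7.26 in Rehydrated. TRINITY_DN167646_c1_g1 lay between 355 and 548 CPM in all libraries before rewetting, with 422 and 423 in Hydrated and 458 and 454 in Dry, and was at 155 and 117 in Rehydrated. These last 2 genes were the ones with a higher mean in Dry than in Hydrated under library totals.

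A rank within each library, a measure added after the data were seen, does not depend on how libraries are scaled, but the signal ranked is the one that chose the members. Among the 2904 genes, the median member stood at the 83.5 and 84.3 percentile of signal in the Hydrated libraries, 82.5 and 83.1 in Early, and 84.3 and 83.9 in Late. It stood at 70.4 and 72.5 in Dry and at 36.5 and 35.2 in Rehydrated. The members were thus mostly abundant genes up to Late, somewhat lower in the order of genes in Dry, and much lower after rewetting. In 16 members both Dry ranks lay below both Hydrated ranks and in 2 above them. In 21 of 21 both Rehydrated ranks lay below both Dry ranks, after a choice made for low Rehydrated signal. The same was not counted over the 2904 genes, so nothing is read from these counts of ranks. The other 908 genes within the Late and Dry limits, which are those without the loss, so that the Rehydrated contrast with the members is fixed by the choice, had median percentiles of 51.2 and 50.5 in Hydrated, 59.6 and 60.0 in Dry, and 62.0 and 61.9 in Rehydrated.

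**Figure D3:**
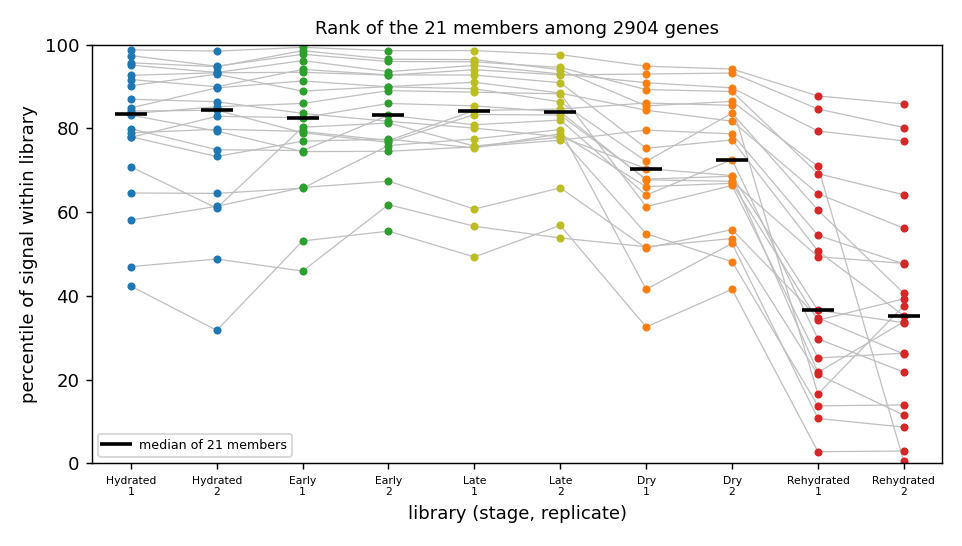
Percentile of deposited signal within each library (y axis) for the 21 members among 2904 genes, by library (x axis). Points are genes, grey lines join a gene across libraries and black bars are medians, which stand between 82.5 and 84.3 up to Late, at 70.4 and 72.5 in Dry and at 36.5 and 35.2 in Rehydrated.

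Together the members took 0.825% and 0.616% of all counts in the Hydrated libraries (95% Wilson intervals from 0.812 to 0.838 and from 0.603 to 0.629). In Early the shares were 1.13% and 0.710%, in Late 0.789% and 0.487%, in Dry 0.307% and 0.255%, and 0.115% and 0.0913% after rewetting. In every stage the 2 libraries differed by more than their counting intervals, and the Late range overlapped that of Hydrated. Both Dry libraries lay below all earlier libraries and both Rehydrated libraries below Dry. The 2 members with the most counts, TRINITY_DN130927_c0_g1 and TRINITY_DN173738_c0_g1, made up between 35.0% and 53.3% of these counts. Without them the stage means were 0.386% ± 0.0246 in Hydrated, 0.163% ± 0.0140 in Dry and 0.0667% ± 0.0119 in Rehydrated (SD, n = 2).

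**Figure D4:**
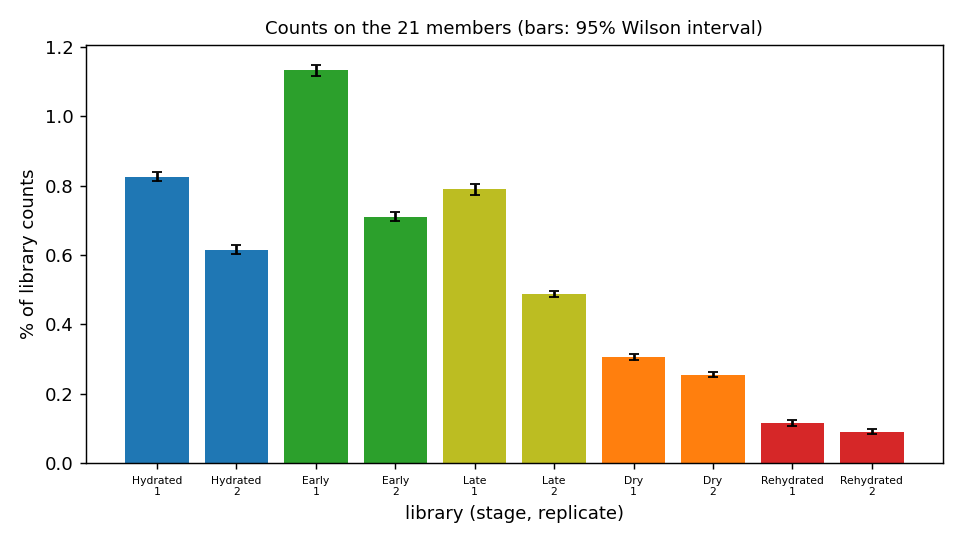
Share of all counts of a library that fell on the 21 members (y axis, percent), by library (x axis). Bars are single libraries, coloured by stage, with 95% Wilson intervals that cover counting error only. The Dry libraries stand at 0.307% and 0.255% and the Rehydrated ones at 0.115% and 0.0913%, below all earlier libraries.

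The rule set no ratio of Early to Hydrated, and for this step the results of a test over all genes are given. Libraries of both stages nevertheless entered the rule, through the lowest earlier library and the Hydrated mean under the Late and Dry limits, so the members' values are not independent of their choice and their counts and medians are descriptions. In Early vs Hydrated, 2 of 21 members rose and none fell in edgeR's quasi-likelihood test at an adjusted p of 0.05 over 9856 genes, where 2.33% of all genes rose and 2.73% fell. All 21 members were among the genes tested. With unadjusted p under 0.05 there were 10 members. The genes tested were not counted at that threshold, so nothing is read from this number. DESeq2 called 4 members higher and none lower, where over all genes it called 166 higher and 135 lower. The genes with an adjusted p in DESeq2 were not counted, so no share is given and nothing is read from the 4. TRINITY_DN182174_c5_g10 rose 3.07-fold on the deposited signal, with a fitted log2 change of 1.82 (edgeR, SE 0.388, adjusted p = 0.00882). TRINITY_DN149458_c0_g1 had a signal of 409 and 249 in Hydrated and 868 and 744 in Early, and its fitted log2 change was 1.34 (edgeR, SE 0.387, adjusted p = 0.0459). For both, the Early libraries lay above the Hydrated ones without overlap. Both calls were lost under library totals, at log2 fold changes of 1.32 and 0.84 (adjusted p = 0.134 and 0.262), and with limma on the deposited signal. Both were also lost without Hydrated replicate 1, Hydrated replicate 2 or Early replicate 1, while without Early replicate 2 that of TRINITY_DN182174_c5_g10 held (adjusted p = 0.0252). That of TRINITY_DN149458_c0_g1 was lost as well without Early replicate 2, Late replicate 2, Dry replicate 1 or Dry replicate 2 and without a filter on low counts. Over all alternatives the adjusted p of TRINITY_DN182174_c5_g10 ranged from 0.000843 to 0.874 and that of TRINITY_DN149458_c0_g1 from 0.0164 to 0.402.

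The other 19 members did not pass. Their fitted log2 fold changes were positive for 16 and lay between -0.28 and 1.22, each with an SE between 0.317 and 0.437. TRINITY_DN155202_c1_g1 was at 1.11 (SE 0.391, adjusted p = 0.107), and TRINITY_DN130927_c0_g1 at 0.94 (SE 0.437, adjusted p = 0.230). Over all 21 the median was 0.67, against 0.31 over the other 908 genes within the Late and Dry limits and -0.07 over all genes tested. In 15 members both Early libraries lay above both Hydrated libraries on the deposited signal, where the same held for 37.4% of the 2904 genes. Under library totals this was so for 7 members, against 14.3% of the genes.

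**Figure D5:**
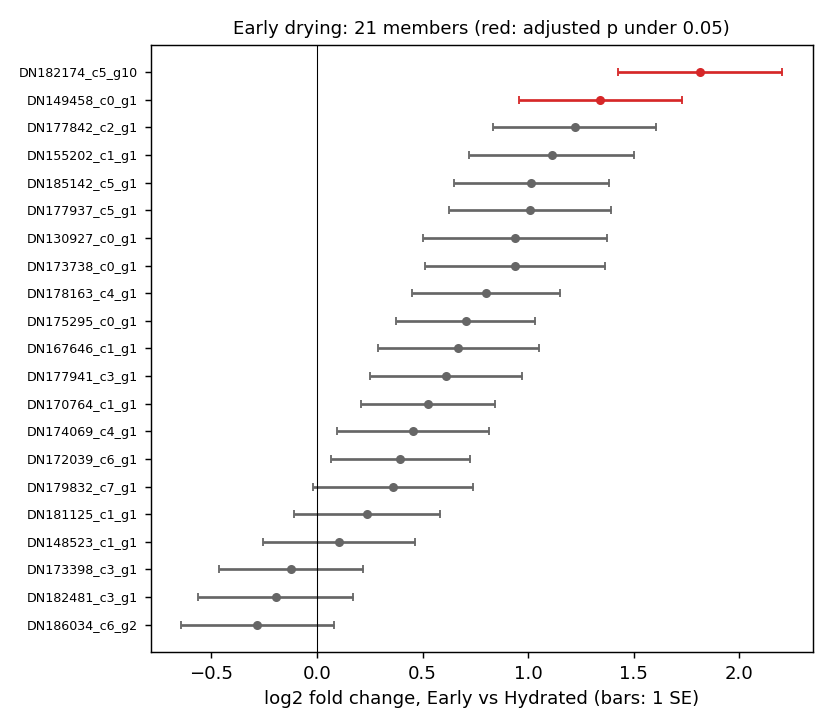
Fitted log2 fold change in Early vs Hydrated (x axis) for each of the 21 members (y axis, identifiers without their common prefix), with bars of 1 SE from edgeR. The 2 members in red passed the test at an adjusted p of 0.05, at 1.82 and 1.34, and 18 of the 21 estimates lie above 0 under TMM (13 by the ratio of means under library totals).

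Between Early and Late no member rose or fell in edgeR's test, where 0.294% of all genes rose and 1.15% fell. At an unadjusted p under 0.05 there was 1 member, and nothing is read from it, since the genes tested were not counted there. DESeq2 also called no member, where over all genes it called 47 higher and 98 lower, again without a share. The rule bounds Late against Hydrated, and so also limits this step. Fitted log2 fold changes lay between -1.06 and 0.38, with a median of -0.16, and were negative for 15 members. The lowest was that of TRINITY_DN182174_c5_g10 (SE 0.386, adjusted p = 0.261). TRINITY_DN149458_c0_g1, the other member that edgeR called higher in Early vs Hydrated, had -0.70 (SE 0.383, adjusted p = 0.551). Its signal was 566 and 425 in Late, 159 and 176 in Dry, and 21.3 and 17.8 in Rehydrated. It was highest in Early, below its Hydrated libraries in Dry, and lowest after rewetting.

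The median signal of the members before rewetting was 139, against 44.9 for the other 908 genes, and this level entered the rule. Their median relative length, which the rule did not name, was 0.660 against 1.07, where 1 stands for the median gene of the same library. These are descriptions, and no test was made of them. Counts that were not whole, which arise when a read is divided among several assembled genes, occurred in 3 of 21 members and in 23.7% of the 908 genes. The 3 members were TRINITY_DN182174_c5_g10 and TRINITY_DN149458_c0_g1, each with such counts in 9 libraries, and TRINITY_DN177941_c3_g1 with such counts in 1. The first 2 are the members that edgeR called higher in Early vs Hydrated, so both calls rest on reads in part divided among genes. A rule on the lowest and highest library also favours genes whose libraries lie close together. The signal of the 2 libraries of a stage differed in the median member by 1.25-fold in Hydrated, 1.16-fold in Early, 1.23-fold in Late, 1.14-fold in Dry and 1.27-fold in Rehydrated, where TRINITY_DN182174_c5_g10, at 0 in one library, has no ratio. For those of the 908 genes with a ratio, the medians were 1.24, 1.28, 1.31, 1.38 and 1.68 in the same order of stages. The libraries of the members thus did not lie closer together in Hydrated.

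No 2 members shared the number after DN in their identifiers. TRINITY_DN182174_c5_g10 stood out in that 13 other genes with at least 300 counts carried its number, 9 of them with the same component too. Of these 13, 5 also had Rehydrated values at most 0.333 times their lowest earlier library. In each of the 5 the Dry mean was below the rule's lower limit, at 0.147 to 0.444 times the Hydrated mean. The Early mean was above the Hydrated mean in 13 of 13, between 1.35-fold and 3.66-fold. Over all genes with at least 300 counts the median log2 difference of Early from Hydrated was 0.18, and the share with a higher Early mean was not counted. Most of the 13 had counts that were not whole, so they may not be separate observations. Nothing is therefore read from 13 of 13. Reads of TRINITY_DN182174_c5_g10 were in part divided with other genes, so its own values and those of its group are uncertain. For the other 20 members, no gene of the same component was present, and 1 had genes of the same number that reached 300 counts.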

How the data were processed

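The study measured RNA of 10 libraries of algal cells in 5 stages. The authors deposited expected counts per assembled gene and, for the same genes, a TMM-normalized expression signal, without saying if it had been TPM or FPKM before that step. The submitters' processing notes name RSEM 1.2.28, Bowtie2 2.2, Trimmomatic 0.35, CASAVA 1.4 and DESeq2, with no role given. Commercial and custom oligos served to remove ribosomal RNA, per the labels' protocols. Stages came from the stage label and replicate numbers from the titles. Columns carry the prefix Sdes where titles carry Ades.

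The members and all choices were made with earlier results of these data known. Expected counts were rounded and filtered with filterByExpr (minimum count 10), which left 9856 genes. Counts were TMM-scaled and tested with edgeR 4.0.16 (R 4.3.3) in one quasi-likelihood fit of all libraries with a term per stage, with Benjamini-Hochberg adjustment over all genes tested. SEs are the absolute log2 fold change over the root of F. The fit was tested on simulated data. limma 3.58.1 and DESeq2 1.42.0 served as alternatives. Relative length is counts divided by signal, over the library's median, from values of at least 20 counts. With 2 libraries a stage, the smallest two-sided p of an exact permutation test is 0.333, so none was made.

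Named were the members with the highest signal, the largest loss, the highest and lowest ratio of Dry to Hydrated and the largest called changes, 2 of each, and 2 genes on each side of the ratio limit of 0.333. TRINITY_DN173738_c0_g1, TRINITY_DN186034_c6_g2, TRINITY_DN177937_c5_g1 and TRINITY_DN182481_c3_g1 were named after their values were seen. Intervals and limits leave out all error but that of counting.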

Additional observations from a re-analysis of the deposited data

How the results depend on the processing

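The set itself depended on the scaling and the limits. It held 64 genes with a loss of at least 2-fold, 57 without limits on Late and Dry, and 2 under library totals, while the other 6 alternatives gave between 14 and 27. The median log2 Rehydrated vs Dry over the members, -2.95, was -1.30 under library totals and -3.16 under RLE, and between -2.98 and -2.88 with 1 Rehydrated library left out. For Rehydrated vs Hydrated it was -3.20, and -2.97, -2.96 and -2.77 under library totals, RLE and upper quartile, and between -3.31 and -3.10 with 1 Rehydrated library left out. Members called in Early vs Hydrated numbered 2, but 0 under library totals and both limma fits, 1 without a filter, 4 with DESeq2 and between 0 and 4 when leaving out a library. All genes called in that comparison numbered 499, with 301 by DESeq2, 6 and 27 by limma with 0.1 and 1 added, 806 in a fit of both stages alone and between 116 and 686 when leaving out a library. Under library totals 34 genes rose and 374 fell, against 230 and 269 under TMM. In Late vs Early 142 genes were called, with 217 without a filter, 16 and 30 by limma and between 24 and 197 when leaving out a library, but no member under any alternative. Signs of uncalled values turned for TRINITY_DN181125_c1_g1 and TRINITY_DN170764_c1_g1 in Early vs Hydrated under library totals (-0.28 and -0.012). In Late vs Early they turned for TRINITY_DN167646_c1_g1 under library totals (-0.10), and with an Early library left out, where TRINITY_DN185142_c5_g1 lay between -0.33 and 0.21, TRINITY_DN178163_c4_g1 between -0.38 and 0.025, and TRINITY_DN177941_c3_g1 between -0.018 and 0.78. The causes were not tested. With the replicate number as a block, 3 members and 645 genes were called in Early vs Hydrated and 0 and 189 in Late vs Early. The numbers do not pair the samples in the labels, and same-numbered libraries deviated together only weakly (r across genes of 0.0981 and 0.0922). Depth limits the members with under 10 Rehydrated counts.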

Other observations

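The signal and the counts of TRINITY_DN177937_c5_g1 gave different pictures of the dry state. Its Dry libraries held 226 and 203 counts, but a deposited signal of 128 and 304. The relative length implied by counts over signal was 1.62 and 0.606 in these libraries, and over all 10 libraries its highest value was 4.19 times its lowest, against a median of 1.08 times over the members and 1.12 times over the 2904 genes with at least 300 counts. The cause was not tested. In CPM of library totals it stood at 499.5 and 419 in Hydrated, 156 and 127 in Dry, and 110 and 91.9 in Rehydrated, a lower level in Dry and a further but smaller distance after rewetting. TRINITY_DN182481_c3_g1 showed a similar conflict. Its relative length was 1.28 and 1.34 in Dry, against values from 0.766 to 1.02 up to Late. Its Dry mean was 0.662 times Hydrated on the deposited signal. In CPM under TMM the means were 167 in Hydrated and 206 in Dry, and under library totals 249 and 89.2. The cause was not tested here either.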
